A study of Mus musculus with 4 samples.

Results

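The 10 genes described here encode the enzymes that modify, trim and crosslink fibrillar collagen: the prolyl 4-hydroxylase alpha subunits P4ha1, P4ha2 and P4ha3, the lysyl hydroxylases Plod1 and Plod2, the procollagen C-proteinase Bmp1, and the lysyl oxidases Lox, Loxl1, Loxl2 and Loxl3. They were taken by symbol from the feature tables, where each matched 1 of 28001 features in all 4 libraries. The libraries are droplet 3′ single-cell RNA libraries of sorted mouse heart cells on a C57BL/6 background. The first held Hic1 CreERT2 tdTomato+ cells from hearts taken 7 days after ligation of the left anterior descending artery (LAD), the surgical model of myocardial infarction, with 3 hearts pooled. Its counterpart held Hic1 CreERT2 tdTomato+ cells from undamaged hearts, again 3 pooled. Another library held PDGFRa H2BEGFP+ cells of the strain B6.129S4-Pdgfratm11(EGFP)Sor/J from 4 hearts carrying antibody hashtags. Of these hearts 2 were undamaged and 2 were taken 7 days after LAD ligation, without a label that ties a hashtag to a condition. The last held Hic1 Citrine+ cells from 3 undamaged hashed hearts. Both tdTomato libraries are restricted to cells, and their descendants, in which the Hic1 promoter drove Cre. The PDGFRa and citrine cells were taken by a fluorescent reporter, which defines a sort and not a lineage.

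Collagen chains are hydroxylated on proline and lysine in the endoplasmic reticulum, where 4-hydroxyproline stabilises the triple helix and hydroxylysine sets which crosslinks can form. Outside the cell the C-propeptide is removed by Bmp1, fibrils assemble, and the copper enzymes of the lysyl oxidase family oxidise lysine and hydroxylysine so that crosslinks join neighbouring molecules. In an infarcted heart these steps turn newly secreted collagen into a scar that carries load. Cthrc1, a secreted protein, is widely used as a marker of activated, matrix-producing cardiac fibroblasts.

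After filtering, 4263 LAD and 2786 undamaged tdTomato cells, 12567 PDGFRa cells and 10838 citrine cells remained, with median depths of 3668, 3453, 7729 and 8038 unique molecular identifiers (UMIs, counted transcripts) per cell. Fibroblast-like cells numbered 3122 in the LAD library and 2431 in the undamaged tdTomato library, 12567 in the PDGFRa library and 10575 in the citrine library. All 8 fibroblast markers were detected in the fibroblast-like cells of both tdTomato libraries, with summed levels of 43770 CPM in LAD and 83820 CPM in undamaged cells. The smooth muscle list summed to 237 CPM (UMIs scaled to the class's total) in LAD fibroblast-like cells, against 110 CPM in undamaged ones, and the pericyte list to 156 CPM against 90.5 CPM. Their part in the results was not tested. The tdTomato libraries shared 8 cell barcodes, and the citrine and PDGFRa libraries shared 36. Hashtags placed 57.99% of PDGFRa cells and 50.51% of citrine cells in a heart. With 1 library per condition there is no replicate check on ligation, so the LAD and undamaged values are given with exact 95% Poisson intervals, which cover counting error alone. A gene was called different when its level differed over 2-fold with at least 20 UMIs in the pooled sums. Levels are CPM of the cell class, and 3′ counting leaves them unscaled for transcript length, so levels of different genes are not ranked against each other. A lower level in a class cannot separate fewer expressing cells from less RNA per cell.

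Of the prolyl 4-hydroxylase subunits, P4ha3 was over 2-fold higher after ligation, and P4ha1 and P4ha2 were not called. P4ha1, the main catalytic subunit in most tissues, stood at 115 CPM in LAD and 125 CPM in undamaged fibroblast-like cells, a ratio of 0.921 (0.854 to 0.994). P4ha2, a second alpha subunit, stood at 49.9 CPM after ligation and 43.0 CPM without it, a ratio of 1.16 (1.02 to 1.32). P4ha3, the least studied alpha subunit, gave 94 UMIs in the LAD library and 4 UMIs in the undamaged one. Its levels were 6.53 CPM (5.28 to 7.99) and 0.440 CPM (0.120 to 1.13), a ratio of 14.8 (5.61 to 55.6). The 2 libraries' intervals were apart for P4ha3, and the width of the ratio's interval comes with the 4 UMIs in undamaged cells.

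The annotated promoters of P4ha1, P4ha2, P4ha3 and Plod1 are shown because P4ha1, P4ha2, Plod2, Lox and Loxl2 are known targets of hypoxia-inducible factors and these 4 members are the ones with an entry among 32851 RefSeq promoters (GRCm38.p6). Each runs from 250 bases before to 50 bases after the annotated start. Capitals mark ACGTG or GCGTG on either strand, the core of the hypoxia response element, which 43.8% of all promoters hold. P4ha1 (chr10:59323046-59323345, plus strand), P4ha2 (chr11:54100674-54100973, plus strand), P4ha3 (chr7:100285270-100285569, plus strand) and Plod1 (chr4:147936727-147937026, minus strand) read 5′ to 3′ as follows.
P4ha1: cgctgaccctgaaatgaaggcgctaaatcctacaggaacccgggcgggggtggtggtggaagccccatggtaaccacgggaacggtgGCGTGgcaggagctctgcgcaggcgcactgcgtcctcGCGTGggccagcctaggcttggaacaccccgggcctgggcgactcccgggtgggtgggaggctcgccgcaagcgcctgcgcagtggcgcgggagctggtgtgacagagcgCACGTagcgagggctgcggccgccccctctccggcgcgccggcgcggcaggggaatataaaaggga
P4ha2: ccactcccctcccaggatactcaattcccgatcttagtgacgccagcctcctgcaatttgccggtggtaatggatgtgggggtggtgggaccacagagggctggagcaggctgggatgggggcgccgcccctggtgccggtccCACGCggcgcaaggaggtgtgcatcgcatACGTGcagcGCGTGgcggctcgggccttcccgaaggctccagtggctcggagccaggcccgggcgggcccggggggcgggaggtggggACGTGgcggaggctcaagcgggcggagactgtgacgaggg
P4ha3: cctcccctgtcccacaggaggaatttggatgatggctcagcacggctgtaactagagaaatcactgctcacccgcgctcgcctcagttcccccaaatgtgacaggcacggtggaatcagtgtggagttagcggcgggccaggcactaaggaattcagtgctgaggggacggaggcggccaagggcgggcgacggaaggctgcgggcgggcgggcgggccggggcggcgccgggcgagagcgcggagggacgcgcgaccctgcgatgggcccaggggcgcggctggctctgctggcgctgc
Plod1: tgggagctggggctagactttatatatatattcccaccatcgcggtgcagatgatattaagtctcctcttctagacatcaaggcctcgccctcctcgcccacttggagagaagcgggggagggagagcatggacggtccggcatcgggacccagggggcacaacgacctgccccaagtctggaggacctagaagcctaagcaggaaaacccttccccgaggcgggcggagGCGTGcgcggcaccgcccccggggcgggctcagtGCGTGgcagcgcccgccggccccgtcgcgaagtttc
P4ha1 held ACGTG 1 time and GCGTG 2 times, P4ha2 held each 2 times, Plod1 held GCGTG 2 times and no ACGTG, and these letters were not in the P4ha3 window. The P4ha3 window also lacked, on both strands, the SMAD-binding letters CAGAC (in 49.6% of promoters), the TEAD letters CATTCC (in 14.7%), the AP-1 letters TGACTCA (in 5.2%), the TATA box letters TATAAA (in 13.6%) and the letters CCAAT (in 37.4%). No match says only that these letters are not in this window. GC content was 70.3%, 70.3%, 69.3% and 64.3% in that order of genes, against a median of 52.7% over all promoters.

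The summed levels of both lysyl hydroxylases had ratios whose intervals held 1, while Plod2 was detected in a smaller share of LAD cells at 2000 UMIs per cell. Plod1, which acts on helical lysines, stood at 66.5 CPM after ligation and 66.0 CPM in undamaged cells, a ratio of 1.01 (0.909 to 1.12). Plod2, which hydroxylates telopeptide lysines and so directs stable pyridinoline crosslinks, stood at 69.1 CPM and 70.3 CPM, a ratio of 0.983 (0.889 to 1.09). With each cell thinned to 2000 UMIs, Plod2 was detected in 9.18% (8.16 to 10.3) of LAD and 12.5% (11.2 to 14.0) of undamaged fibroblast-like cells, with intervals apart. With cells thinned to 1000 UMIs, 0 members had a lower share with intervals apart. No share over all genes was counted for this measure. Bmp1 stood at 85.4 CPM after ligation and 58.1 CPM in undamaged cells, a ratio of 1.47 (1.33 to 1.63), short of the 2-fold call.

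Lox, the founding lysyl oxidase, had the highest LAD over undamaged ratio of the 4 lysyl oxidases measured here. It gave 1754 UMIs and 122 CPM (116 to 128) in LAD fibroblast-like cells, against 187 UMIs and 20.6 CPM (17.7 to 23.7) in undamaged ones, a ratio of 5.92 (5.09 to 6.93). In cells thinned to 2000 UMIs, Lox was detected in 10.7% (9.60 to 11.8) of LAD and 4.02% (3.24 to 4.92) of undamaged fibroblast-like cells, and in 2 of 498 pericyte-like cells of the LAD library. Loxl1, which acts on elastin, stood at 483 CPM after ligation and 351 CPM without it, a ratio of 1.38 (1.32 to 1.44). Loxl2, which crosslinks basement membrane and fibrillar collagen, had a ratio of 1.09 (1.02 to 1.18), and Loxl3 a ratio of 1.27 (1.11 to 1.47). Of the 10 members, Lox and P4ha3 were called higher and none lower, where 3.1% of 12292 genes were called higher and 4.31% lower. The members' median log2 ratio was 0.28, against -0.06 over all genes tested. The Lox ratio moved to 3.46 (2.77 to 4.36) with cells thinned to 2000 UMIs and to 3.82 (3.25 to 4.50) without the cells in the top 2% of UMIs. P4ha3 then gave no UMI in the thinned undamaged cells and was at least 5.19-fold higher against a floor of 3 UMIs.

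**Figure D1:**
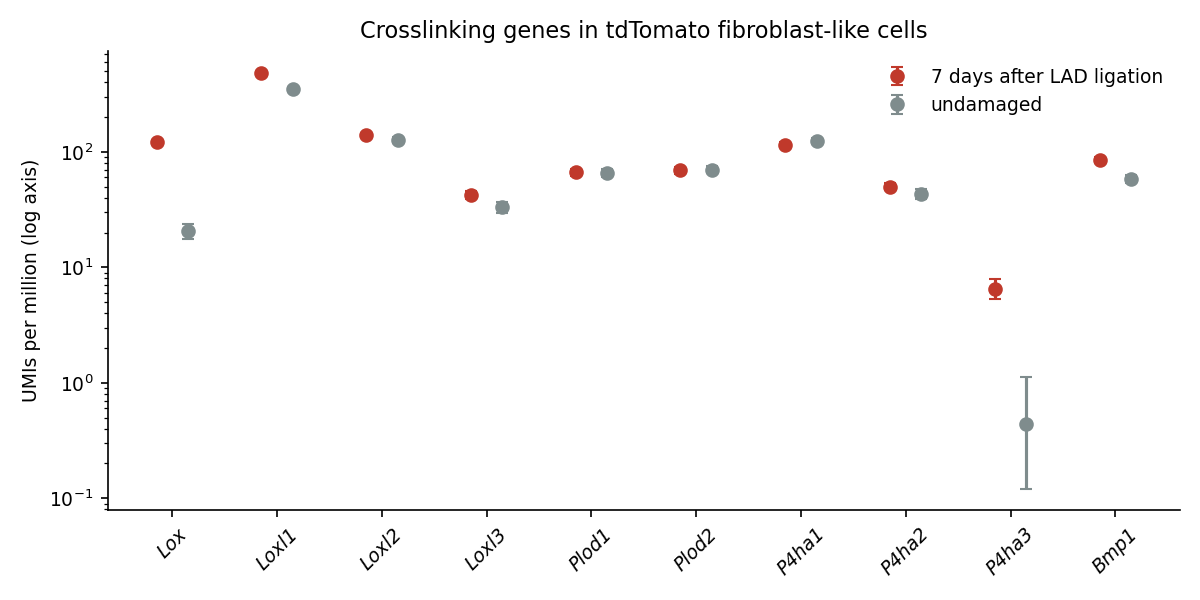
Levels of the 10 members in LAD and undamaged tdTomato fibroblast-like cells, in CPM with exact 95% Poisson intervals. Lox and P4ha3 stand apart, at 122 and 6.53 CPM after ligation against 20.6 and 0.440 CPM without it.

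Most Lox and P4ha3 UMIs came from a small share of the ligated cells. Cells with at least 2 Cthrc1 UMIs made up 8.712% of LAD fibroblast-like cells and 18.69% of their UMIs, but held 74.7% (72.6 to 76.8) of Lox UMIs and 85.1% (76.3 to 91.6) of P4ha3 UMIs. They held 49.4% of Loxl3, 46.1% of Plod2 and 16.9% of P4ha1 UMIs. Among cells with fewer than 2 Cthrc1 UMIs, the LAD over undamaged ratio was 1.84 (1.55 to 2.20) for Lox, 0.654 (0.582 to 0.735) for Plod2 and 0.792 (0.673 to 0.932) for Loxl3, and no member with at least 20 UMIs passed 2-fold. P4ha3 fell under that minimum, with 14 UMIs and 1.20 CPM in these LAD cells, against 4 UMIs and 0.442 CPM in these undamaged cells. The Cthrc1 threshold is a range and not a cell type: 124 LAD cells had 1 Cthrc1 UMI, 28 had 2 and 201 had more than 5. Among undamaged tdTomato fibroblast-like cells, 4 had at least 2 Cthrc1 UMIs.

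Pericyte-like and smooth muscle-like cells were compared as well, but no share over all genes was counted there, so no member was called in them. Median depth was 2289.5 UMIs in LAD and 1575 UMIs in undamaged pericyte-like cells. Loxl2 stood at 173 CPM in 790 LAD pericyte-like cells and 71.2 CPM in 177 undamaged ones, a ratio of 2.44 (1.57 to 3.98). Bmp1 had 96 UMIs after ligation and 3 UMIs without it, a ratio of 4.27 (1.42 to 21.1). The LAD class pooled a cluster of 516 cells with Loxl2 at 111 CPM and Bmp1 at 25.5 CPM and an Rgs16-led cluster of 274 cells with Loxl2 at 240 CPM and Bmp1 at 62.5 CPM, while the undamaged class was 1 cluster. The intervals of the other members' ratios held 1 in pericyte-like cells where both libraries had UMIs, and Lox had 6 UMIs there after ligation. In smooth muscle-like cells every member interval held 1 where both had UMIs.

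In the LAD library the Cthrc1-high cells had Lox, Loxl3, Plod2 and P4ha3 over 2-fold higher than the other fibroblast-like cells. P4ha3 had 80 UMIs and 29.7 CPM in 272 Cthrc1-high cells, against 14 UMIs and 1.20 CPM in 2850 other cells, a ratio of 24.9 (14.0 to 47.5). Plod2 had 170 CPM against 45.8 CPM, a ratio of 3.72 (3.27 to 4.22). Lox had 487 CPM against 37.9 CPM, a ratio of 12.9 (11.6 to 14.4), and Loxl3 111 CPM against 26.1 CPM, a ratio of 4.25 (3.61 to 5.0). Loxl2 had 220 CPM against 121 CPM, a ratio of 1.82 (1.65 to 2.0), Bmp1 a ratio of 1.77 (1.56 to 2.01) and Loxl1 a ratio of 1.73 (1.64 to 1.82). P4ha1 had 104 CPM against 118 CPM, a ratio of 0.886 (0.776 to 1.01). Lox, Loxl3, Plod2 and P4ha3, 4 of 10 members, were over 2-fold higher and none lower, where 6.93% of 11523 genes were higher and 9.17% lower. The Cthrc1-high cells were defined by Cthrc1 alone. Cthrc1-high cells were deeper, with a median of 9480 UMIs against 3860. The smooth muscle list summed to 865 CPM in them against 92.0 CPM, and the fibroblast list to 26700 CPM against 47700 CPM. Of the smooth muscle sums, Acta2, which is also on the list of TGF-beta targets below, gave 412 CPM against 44.2 CPM. The part of depth and of these markers was not tested here.

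The PDGFRa hearts gave the replicated comparison. Hearts 1 and 2 had enough Cthrc1-high cells (828 and 1425, against 1308 and 2042 other cells). Hearts 3 and 4 had 1 and 7 such cells and did not enter. Summed counts were tested with edgeR's quasi-likelihood test, heart as a block and Benjamini-Hochberg adjustment over 12594 genes. Both hearts came from 1 library. With heart as a block, the p-values rest on how much the difference between the cell groups varied between these hearts. The fit left 1 residual degree of freedom, with variance shared across genes, so small p-values are not evidence from many hearts. P4ha3 had 52.2 and 52.9 CPM in Cthrc1-high cells of hearts 1 and 2, against 6.35 and 4.61 CPM in other cells. Its log2 fold was 3.40 (SE 0.118, adjusted p 2.99e-07). P4ha1 had 161 and 140 CPM in Cthrc1-high cells, against 213 and 180 CPM, and fell by 0.28 on the log2 scale (SE 0.047, adjusted p 0.00164). P4ha2 had 78.7 and 73.1 CPM against 67.9 and 62.0 CPM and a log2 fold of 0.33 (adjusted p 0.00134). The 3 alpha subunits thus differed in direction, with P4ha1 lower and the others higher in both hearts.

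Plod2 had 358 and 378 CPM in Cthrc1-high cells, against 130 and 132 CPM in other cells, and rose with a log2 fold of 1.59 (SE 0.0482, adjusted p 1.55e-07). Plod1 had 61.6 and 58.5 CPM against 69.3 and 69.7 CPM and did not pass the test (log2 fold -0.11, adjusted p 0.154). Bmp1 had 96.0 and 104 CPM against 85.8 and 95.7 CPM, with a log2 fold of 0.25 (adjusted p 0.00461). Lox had 628 and 622 CPM in Cthrc1-high cells, against 150 and 123 CPM in other cells, and rose by 2.31 on the log2 scale (SE 0.0672, adjusted p 1.23e-07). Loxl3 had 69.7 and 69.0 CPM against 30.8 and 29.7 CPM, a log2 fold of 1.30 (adjusted p 1.51e-06). Loxl1 had 865 and 864 CPM against 624 and 584 CPM, a log2 fold of 0.63 (adjusted p 1.48e-05). Loxl2 had 130 and 159 CPM against 130 and 153 CPM, a log2 fold of 0.14 (adjusted p 0.0464). For Loxl2 the Cthrc1-high and the other values of the 2 hearts overlapped.

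In all, 8 of 10 members were higher and 1 lower at an adjusted p of 0.05, where 24.5% and 23.4% of genes were. Members past the test and over 2-fold higher numbered 4 and lower 0, where 6.52% and 6.27% of genes were. The median member log2 fold was 0.48, against -0.02 over all genes. At a threshold of 1 Cthrc1 UMI all 4 PDGFRa hearts entered, with 43 and 92 cells at or over it in hearts 3 and 4. Lox (adjusted p 0.0419), Loxl3 (0.0339), Plod2 (0.0204) and P4ha3 (0.000268) then passed edgeR's test. Their folds were then 2.97 for Lox, against 4.97 at 2 UMIs, 1.96 for Loxl3, against 2.47, 2.21 for Plod2, against 3.02, and 14.1 for P4ha3, against 10.6. At that threshold Loxl1, Loxl2, P4ha1, P4ha2 and Bmp1 did not pass. Median depth was 16666 and 16524 UMIs in Cthrc1-high cells of hearts 1 and 2, against 8301.5 and 7435 in other cells, and the smooth muscle list summed to 1040 and 975 CPM against 78.5 and 70.6 CPM. With cells thinned to 4000 UMIs the same test kept every member call but that of Loxl2 (adjusted p 0.116).

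**Figure D2:**
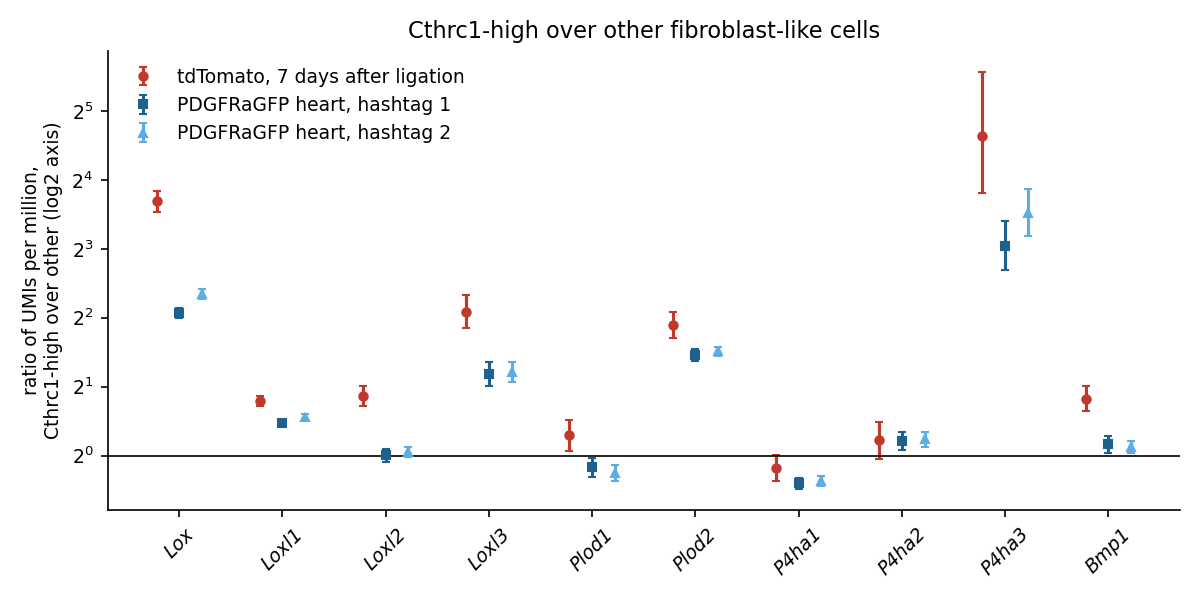
Ratio of CPM in Cthrc1-high over other fibroblast-like cells for each member (log2 axis), in the LAD library and in PDGFRa hearts 1 and 2, which the legend names by hashtag; bars are 95% intervals for counting error and the line marks a ratio of 1. P4ha3, at 24.9, 8.22 and 11.5, and Lox, at 12.9, 4.18 and 5.07, stand highest, and P4ha1 lies below the line at 0.886, 0.756 and 0.774.

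Lox and Loxl3 were higher in each successive bin of Cthrc1 UMIs in the LAD library and in both hearts, and the other members were not in all 3. Some steps lay within counting error. Examples are Lox at 369 (297 to 453) and 403 (328 to 490) CPM in the LAD library, and Loxl1 at 911 and then 903 CPM in heart 1. No share over all genes was counted for this order. With cells thinned to 4000 UMIs and binned at 0, 1, 2 to 3, 4 to 7 and 8 or more Cthrc1 UMIs, Lox stood at 37.7, 141, 369, 403 and 590 CPM in the LAD library. In heart 1 the values were 142, 331, 519, 612 and 842 CPM, and in heart 2 they were 122, 281, 446, 579 and 821 CPM. Plod2 stood at 48.7, 96.2, 168, 145 and 182 CPM in the LAD library, at 122, 258, 276, 338 and 482 CPM in heart 1 and at 125, 222, 295, 372 and 468 CPM in heart 2. Loxl3 stood at 201 CPM in the highest LAD bin, against 31.0 CPM in the lowest, and P4ha3 at 51.6 CPM against 0.982 CPM. P4ha1 stood at 188 CPM in the highest bin of heart 1 and 132 CPM in that of heart 2, against 214 and 178 CPM in their lowest bins. Loxl2, Plod1, P4ha1, P4ha2 and Bmp1 kept no such order in the LAD library or either heart, apart from Plod1 in heart 2, where the level was lower in each successive bin.

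**Figure D3:**
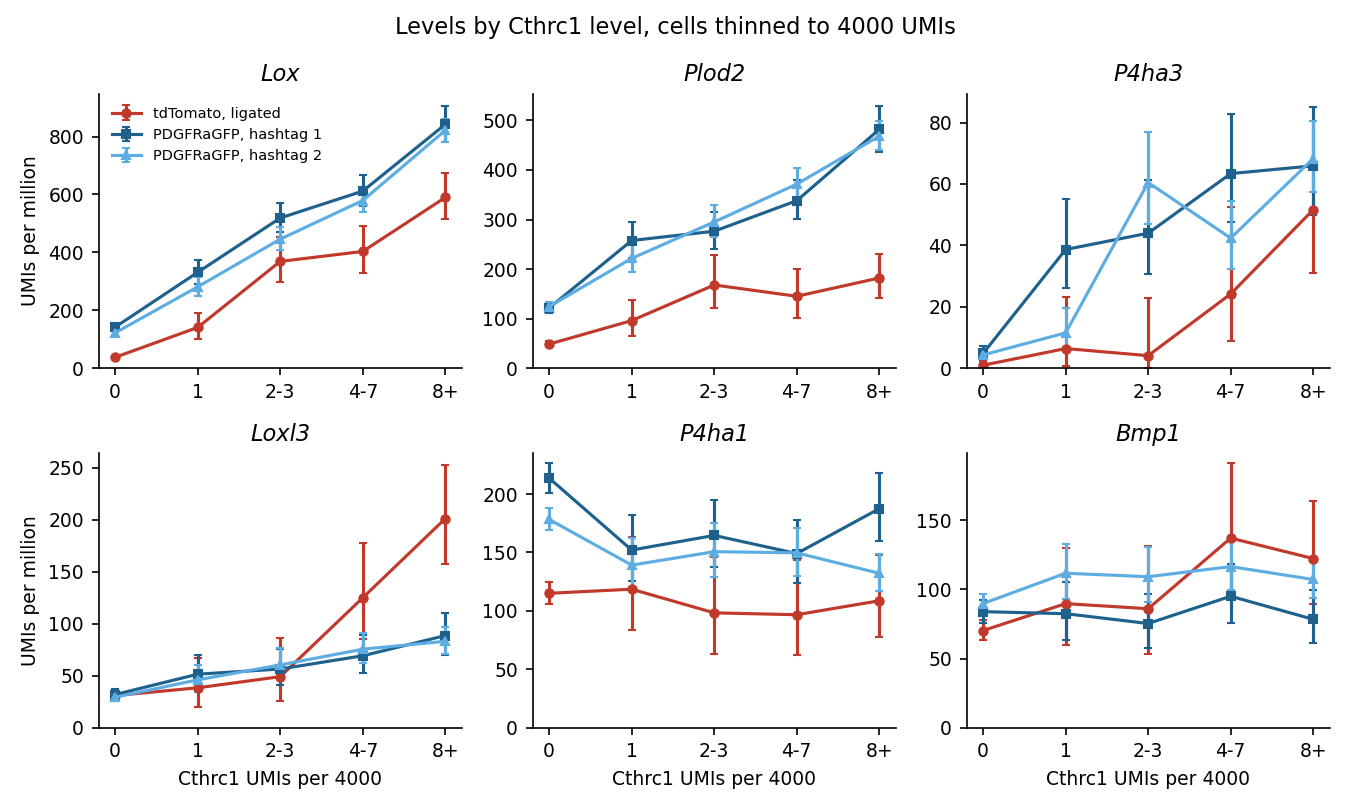
CPM of 6 members (vertical axes) over bins of Cthrc1 UMIs per cell (horizontal axes), in cells thinned to 4000 UMIs, for the LAD library and PDGFRa hearts 1 and 2, which the legend names by hashtag; bars are 95% Poisson intervals. Lox stands at 142 CPM in the lowest and 842 CPM in the highest bin of heart 1, and P4ha1 at 214 and 188 CPM.

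Within each family the mix of paralogs shifted. P4ha3 made up 15.6% of P4ha UMIs in Cthrc1-high LAD cells, against 0.716% in other LAD cells, and 17.9% and 19.9% in hearts 1 and 2, against 2.21% and 1.87%. Plod2 made up 52.4% of Plod1 to Plod3 UMIs against 30.7% in the LAD library, and 70.3% and 73.2% against 50.7% and 51.9% in hearts 1 and 2. Lox made up 31.3% of lysyl oxidase UMIs against 6.19% in the LAD library, and 37.1% and 36.3% against 16.0% and 13.8% in the hearts. Undamaged tdTomato cells had 3.85% Lox, 38.0% Plod2 and 0.261% P4ha3 in their families.

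**Figure D4:**
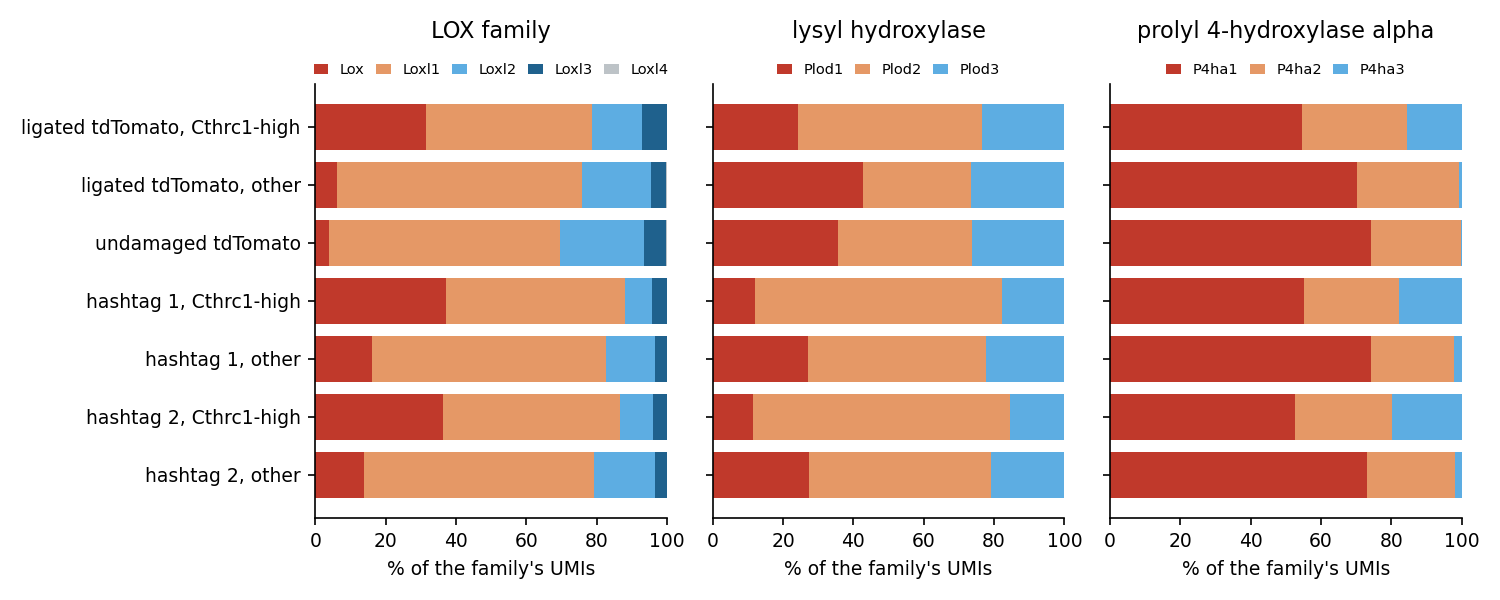
Stacked bars of the share of each enzyme family's UMIs held by each paralog, in percent, in Cthrc1-high and other fibroblast-like cells of the LAD library, in undamaged tdTomato fibroblast-like cells, and in Cthrc1-high and other cells of PDGFRa hearts 1 and 2, named by hashtag. Lox, Plod2 and P4ha3 take 31.3%, 52.4% and 15.6% in Cthrc1-high LAD cells, against 6.19%, 30.7% and 0.716% in other LAD cells.

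Summed by family, enzyme UMIs were fewer per collagen UMI in Cthrc1-high cells, while Lox and P4ha3 went the other way. Per 1000 UMIs of Col1a1, Col1a2 and Col3a1, the alpha subunits of prolyl 4-hydroxylase gave 8.36 in Cthrc1-high LAD cells, against 35.9 in other LAD cells. In hearts 1 and 2 they gave 7.76 and 7.28 against 21.5 and 21.7. The lysyl oxidase family gave 68.3 against 131 in the LAD library, and 45.1 and 47.0 against 70.2 and 78.3 in the hearts. Lox alone gave 21.4 against 8.13 in the LAD library, and 16.7 and 17.1 against 11.3 and 10.8 in the hearts. P4ha3 gave 1.31 against 0.257, and 1.39 and 1.45 against 0.476 and 0.406. The other 8 members gave less per collagen UMI in Cthrc1-high cells of the LAD library and of both hearts, with Loxl1 at 32.3 against 91.4 and P4ha1 at 4.57 against 25.3 in the LAD library. Col1a1, Col1a2 and Col3a1 themselves rose in these cells, with log2 folds of 2.03, 1.92 and 1.39 in the hearts. Any gene that rose less than its collagen sum gives less per collagen UMI. No share over all genes was counted for this measure, so the count is not particular to the members. The intervals of Loxl3 in the LAD library and of Plod2 in heart 1 overlapped. Over all fibroblast-like cells, the P4ha subunits gave 21.3 per 1000 collagen UMIs after ligation and 37.8 in undamaged tdTomato cells.

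Other genes of the pathway were described by list, beside shares over all genes of 3.1% higher and 4.31% lower after ligation, and of 24.5% higher and 23.4% lower in Cthrc1-high cells of the hearts. Of 14 substrates, Col1a1 (2.09) and Col12a1 (2.78) were over 2-fold higher after ligation, and in the PDGFRa hearts 13 were higher and Col5a3 lower in Cthrc1-high cells (edgeR). Col1a1 rose by 2.03 and Col12a1 by 3.20 on the log2 scale there. None of 17 other modification and folding genes passed 2-fold after ligation, and in the hearts 12 were higher and 3 lower, with Fkbp10, a collagen chaperone, at 0.93, P3h1, a prolyl 3-hydroxylase, at 0.77 and Colgalt2, a collagen galactosyltransferase, at -2.10. Of 6 tested propeptide-processing genes, none passed 2-fold after ligation, and in the hearts Furin and Adamts2 were higher and Pcolce and Pcolce2 lower. Among 12 genes listed as lysyl oxidase partners or for fibril assembly, Fn1 (6.86) and Postn (5.72) were higher and Comp (0.476) lower after ligation. In the hearts 10 were higher, with Tnxb and Dcn lower. Of 14 hypoxia targets, Ddit4 (0.239), Adm (0.345) and Vegfa (0.438) were lower after ligation and none higher. In the hearts 4 of 13 were higher and 3 lower, near the shares over all genes. Among 4 tested copper and ascorbate supply genes none passed 2-fold after ligation, and in the hearts the copper importer Slc31a1 and the copper chaperone Atox1 were higher and the ascorbate transporter Slc23a2 lower. Of 8 TGF-beta targets, Ltbp2 (2.67), Tagln (2.65) and Acta2 (2.39) were higher after ligation, and in the hearts 7 were higher and Tgfbi lower. List medians after ligation were 0.63 for substrates, 0.19 for modification and folding, 0.47 for TGF-beta targets and -0.31 for hypoxia targets, on the log2 scale, and in the hearts 1.31, 0.545, 1.29 and 0.114.

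Heart by heart, PDGFRa fibroblast-like cells gave Lox levels of 414, 420, 45.7 and 41.1 CPM in hearts 1 to 4, and citrine cells 27.1, 27.1 and 27.6 CPM. Plod2 gave 256, 279, 79.0 and 113 CPM in the PDGFRa hearts, and 60.3 ± 4.09 CPM (SD, n = 3) in the citrine hearts. P4ha3 gave 31.7 and 33.4 CPM in hearts 1 and 2, 0.518 CPM in heart 4 and 0 UMIs in heart 3, where a floor of 3 UMIs is 0.788 CPM. P4ha1 gave 184, 156, 207 and 310 CPM in the PDGFRa hearts, so heart 4 was highest for it and hearts 1 and 2 were highest for the other 3 genes. In citrine cells, 33 were Cthrc1-high, with Lox at 150 CPM against 26.3 CPM in 10542 other cells, a ratio of 5.70 (4.50 to 7.13), and P4ha3 at 9 UMIs against 41 UMIs. Heart 2 held 61 of the 79 Lox UMIs of these cells, with a ratio of 12.1 (9.11 to 15.8), against 2.34 (1.11 to 4.35) in heart 3 and 0 UMIs in the 3 such cells of heart 1. Of the 10 members 2 were over 2-fold higher there and none lower, where 8.38% and 6.88% of 13933 genes were. No citrine heart had enough such cells for a test.

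The 4 libraries split into 57 clusters, built without the members and list genes, except list genes that are also class markers. Those exceptions were Col1a1, Col1a2, Dcn, Lum, Acta2 and Tagln. The ranks given here are among the fibroblast-like clusters of each library. The PDGFRa cluster with the highest Lox, 633 CPM, held 691 cells and was led by C1qtnf3, Sfrp2 and Col11a1. The Cthrc1-led LAD cluster of 394 cells had Lox at 424 CPM (403 to 447) and Plod2 at 151 CPM (139 to 165), the highest of 8 fibroblast-like clusters for both. A Cst6- and Cilp-led undamaged cluster of 151 cells had the highest Plod2 of 12 fibroblast-like clusters, 137 CPM (111 to 167), with Lox at 5.53 CPM (1.51 to 14.2). A Postn-led citrine cluster of 598 cells likewise had the highest Plod2 of 13 fibroblast-like clusters, 102 CPM, with Lox at 14.2 CPM. Of the same 13 citrine clusters, Loxl2 and Bmp1 were highest in a cluster of 804 cells led by Cmah, Sema3c and Efhd1 among others, at 299 and 302 CPM, where Lox was lowest at 7.06 CPM. Outside the fibroblast-like class, the 20 cycling LAD cells had Plod2 at 165 CPM, and the 36 cycling citrine cells had Plod2 at 129 CPM and Loxl2 at 342 CPM. The Efhd1-led PDGFRa cluster had Loxl2 at 226 CPM, the highest of 13. Efhd1-led clusters had Loxl2 at 192 CPM in the LAD library and 217 CPM in the undamaged tdTomato library, below the highest fibroblast-like clusters there, at 210.0 and 234 CPM.

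**Figure D5:**
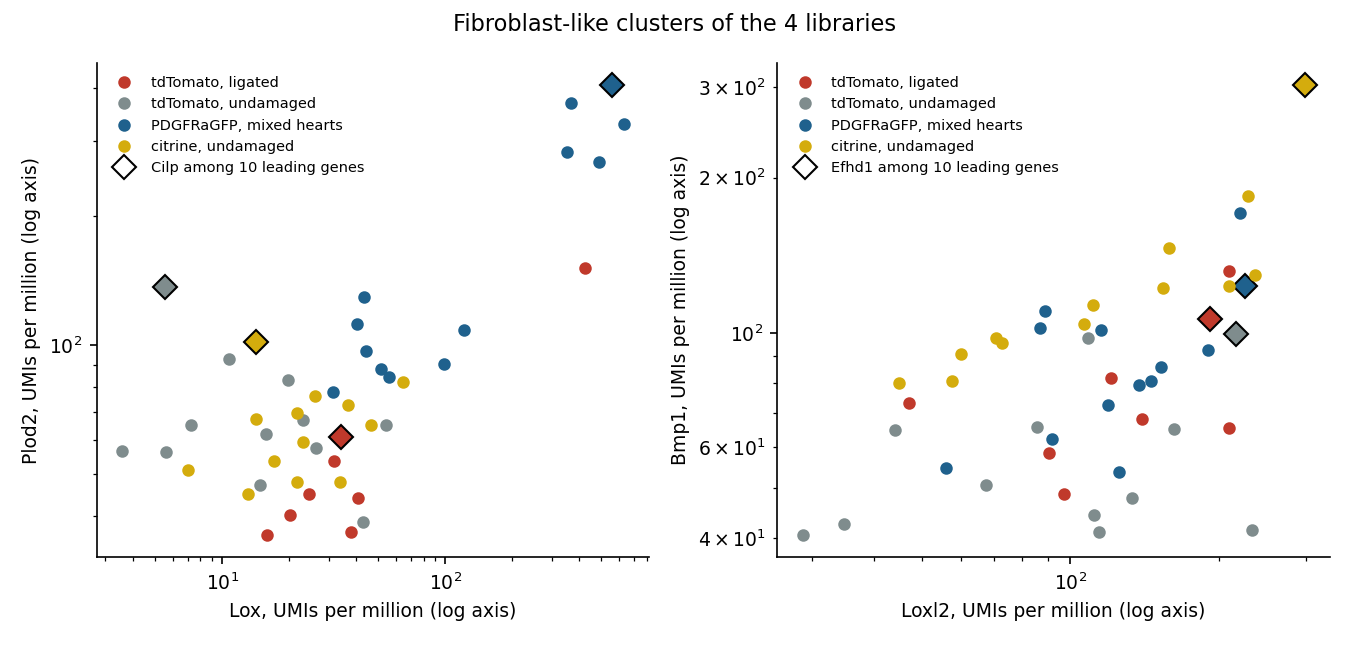
Each point is a fibroblast-like cluster, coloured by library, with Plod2 against Lox on the left and Bmp1 against Loxl2 on the right, in CPM on log axes; diamonds mark clusters with Cilp (left) or Efhd1 (right) among their 10 leading genes. The grey diamond on the left, an undamaged cluster, has Plod2 at 137 CPM with Lox at 5.53 CPM, and the yellow diamond on the right, a citrine cluster, has Loxl2 and Bmp1 at 299 and 302 CPM.

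Across 45 fibroblast-like clusters, log2(CPM + 10) centred within each library, the genes most like Lox were Col1a2 (r 0.887), Maged1 (0.873) and Col1a1 (0.865). Plod2 was most like Col5a2 (0.922), Ddah1 (0.916) and Palld (0.913), Loxl3 most like Col3a1 (0.829), and Loxl2 most like Tpm4 (0.899). P4ha1 was most like Adap2 (0.852) and Bmp1 most like Basp1 (0.787). Between members r was 0.848 for Plod2 and P4ha3, 0.719 for Lox and Plod2, and -0.437 for P4ha1 and Plod2. The clusters of a library share cells of the same hearts and sequencing run. Col1a1 and Col1a2 were also not left out of the clustering. These correlations are therefore descriptions.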

How the data were processed

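The authors deposited UMI count matrices from Chromium 3′ v2 libraries aligned to a modified mm10 genome with Cell Ranger (3.0.2 in 2 file headers); Seurat 2.1 is named in the submitters' processing notes. Counts were used as deposited. Barcodes below 500 genes or 1000 UMIs, or above 10% of UMIs from mitochondrial genes, were dropped. The rest were clustered per library with scanpy 1.11.5 (2000 variable genes, 30 components, 20 neighbours, resolution 1). The clustering left out 86 genes: the members, Cthrc1 and the list genes that are not class markers. Clusters were named from markers in at least 25% of cells, with at least 3 markers. No doublet caller was run. Hashtags were assigned at 10 UMIs and 80% purity. Summed counts were scaled to CPM. edgeR 4.0.16 in R 4.3.3 tested Cthrc1-high (2 or more Cthrc1 UMIs) against other cells with TMM scaling and heart as a block; Cthrc1 itself was left out. On simulated data for this comparison over 12594 genes, 96% of changed genes at 4-fold and 92% at 2-fold were recovered among 200. Among the unchanged genes, 7 were called. The simulation gave every gene the same variability and no difference between hearts, so it does not cover the spread of the real data. The labels pair no hearts across conditions, and the blocks are hearts contributing both cell groups. The citrine test and the difference between libraries could not be fitted as planned, since 3, 11 and 12 cells per heart were Cthrc1-high. Named genes were the members, list genes over 2-fold or past the test (at most 6 per list) and the 3 most similar genes per member averaging at least 20 CPM. Members and lists were chosen with earlier results of these data known. Alternatives are given in the closing section.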

Additional observations from a re-analysis of the deposited data

How the results depend on the processing

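After ligation, 2 members were over 2-fold higher, where 3.1% of 12292 genes were. With at least 100 UMIs, 1 member was. Among members with at least 20 UMIs, 0 were in cells under 2 Cthrc1 UMIs, where P4ha3 had 14 UMIs against 4. Of such members 0 were without the Cthrc1-led LAD cluster, an alternative chosen after seeing the data. Where a member count in this section has no count over all genes beside it, it is not read as a result about the members. Thinning to 1000 UMIs left 0 members with a lower share of LAD cells, against 1 (Plod2) at 2000 UMIs. For Cthrc1-high cells of the PDGFRa hearts, a threshold of 1 UMI gave 4 members higher and 0 lower, with 806 genes higher and 701 lower of 11582. DESeq2 gave 1530 genes higher and 1155 lower of 18272, and lost Loxl2 and Bmp1. Library size alone gave 2 members lower (Plod1 added) and made 36.8% of called genes higher, against 51.2% with TMM, with the median of all genes at -0.121 against -0.0181. With no replicate block, 0 members were lower, as P4ha1 had an adjusted p of 0.0741. Leaving out either heart left no residual degrees of freedom, so it gave values without a test: 4 members were over 2-fold higher without each heart, as with both. Citrine alternatives other than the 1-UMI threshold could not be tested and were not run. At that threshold Lox passed edgeR's test in 2 citrine hearts (log2 fold 2.16, SE 0.373, adjusted p 0.0172), where 62 genes were higher and 60 lower of 11645. The difference between PDGFRa and citrine hearts passed for 0 members, with 2 at an unadjusted p under 0.05. Over all 11538 genes of that test, 0 were higher and 1 lower. With so few genes passing, 0 members does not show that the libraries were alike. No called value changed sign under any alternative run. Depth limits P4ha3, with 4 UMIs in undamaged tdTomato cells.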

Other observations

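The 4 PDGFRa hearts fell into separate sets for several members, with no label for their condition. Lox stood at 414 and 420 CPM in hearts 1 and 2, and at 45.7 and 41.1 CPM in hearts 3 and 4. Loxl3 stood at 52.3 and 53.1 CPM in hearts 1 and 2, and at 25.7 and 28.6 CPM in hearts 3 and 4. Plod1 did not separate them, at 65.1, 63.0, 60.9 and 68.2 CPM in hearts 1 to 4. Bmp1 stood at 91.4, 101, 73.8 and 80.7 CPM in the PDGFRa hearts and at 129 ± 7.28 CPM (SD, n = 3) in the citrine hearts.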
